A study of Homo sapiens with 6 samples.

Results

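The genes described here are 50 members of the cellular response to low oxygen and of glycolysis, out of 58884 genes in the count table. They are 8 hypoxia-inducible factor (HIF) genes and their regulators, 19 HIF targets outside glycolysis, and 23 genes of glucose transport, glycolysis and lactate handling. Members were found by gene symbol, each symbol matched 1 row, and 47 of the 50 passed the filter on low counts. RNA was measured in tumours of the established colorectal cancer line SW480, of human origin, grown in the livers of NSG mice after injection into the portal circulation. The 3 control libraries (sgCtrl) carried a control guide RNA and the 3 knockout libraries (sgITPR3) a guide RNA against ITPR3, the type 3 inositol trisphosphate receptor. In both groups the livers were digested with collagenase IV, tumour cells were enriched on a density gradient and mouse cells were depleted. Whether the edited cells were a clone or a pool, and whether each library came from its own mouse, was stated in none of the labels, so the p-values cover the spread among these 6 libraries and no more. Libraries were made from polyadenylated RNA with a kit that reads the 3′ end of transcripts, so a transcript gives a tag whatever its length. Levels are in CPM, each gene's counts relative to the TMM-scaled total of its library.

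HIF is a pair of proteins, an oxygen-regulated alpha subunit (HIF1A or EPAS1) and its stable partner ARNT. In the presence of oxygen the prolyl hydroxylases (EGLN1, EGLN2, EGLN3) mark the alpha subunit for the VHL ubiquitin ligase, and HIF1AN blocks its activity by a further hydroxylation. When oxygen is low the pair binds DNA and raises genes for glucose uptake, glycolysis, acid export, blood vessel growth and a lower use of mitochondria. Glycolysis turns glucose into pyruvate, which lactate dehydrogenase converts to lactate for export from the cell. The HIF alpha subunits are controlled mainly at the level of protein, which these data do not measure.

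Of the 47 tested members, 17 fell in sgITPR3, 4 rose and 26 did not pass (edgeR quasi-likelihood test, adjusted p under 0.05 over 15804 genes). Over all genes tested, 11.9% fell and 11.6% rose, 23.5% together. These shares were not matched for abundance: 45 of the 47 members averaged 10 CPM or more, against 8963 of the 15804 genes. The members' median log2 fold change (sgITPR3 minus sgCtrl) was -0.17, against 0.00 for all genes tested (0.000859 before rounding). Of the tested HIF targets outside glycolysis, 6 fell and 2 rose of 18, with a median of -0.15. Of the tested glycolysis genes, 9 fell and 1 rose of 22, also with a median of -0.17. The HIF factors and regulators held 2 falls and 1 rise among 7 tested. Libraries of the groups did not overlap for 15 members that were lower in sgITPR3 and for 7 that were higher, while 19.7% and 19.6% of all genes did so. Without sgCtrl replicate 1 only 2 members rose, and in a test against a change of 1.2-fold 7 fell and 2 rose.

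**Figure D1:**
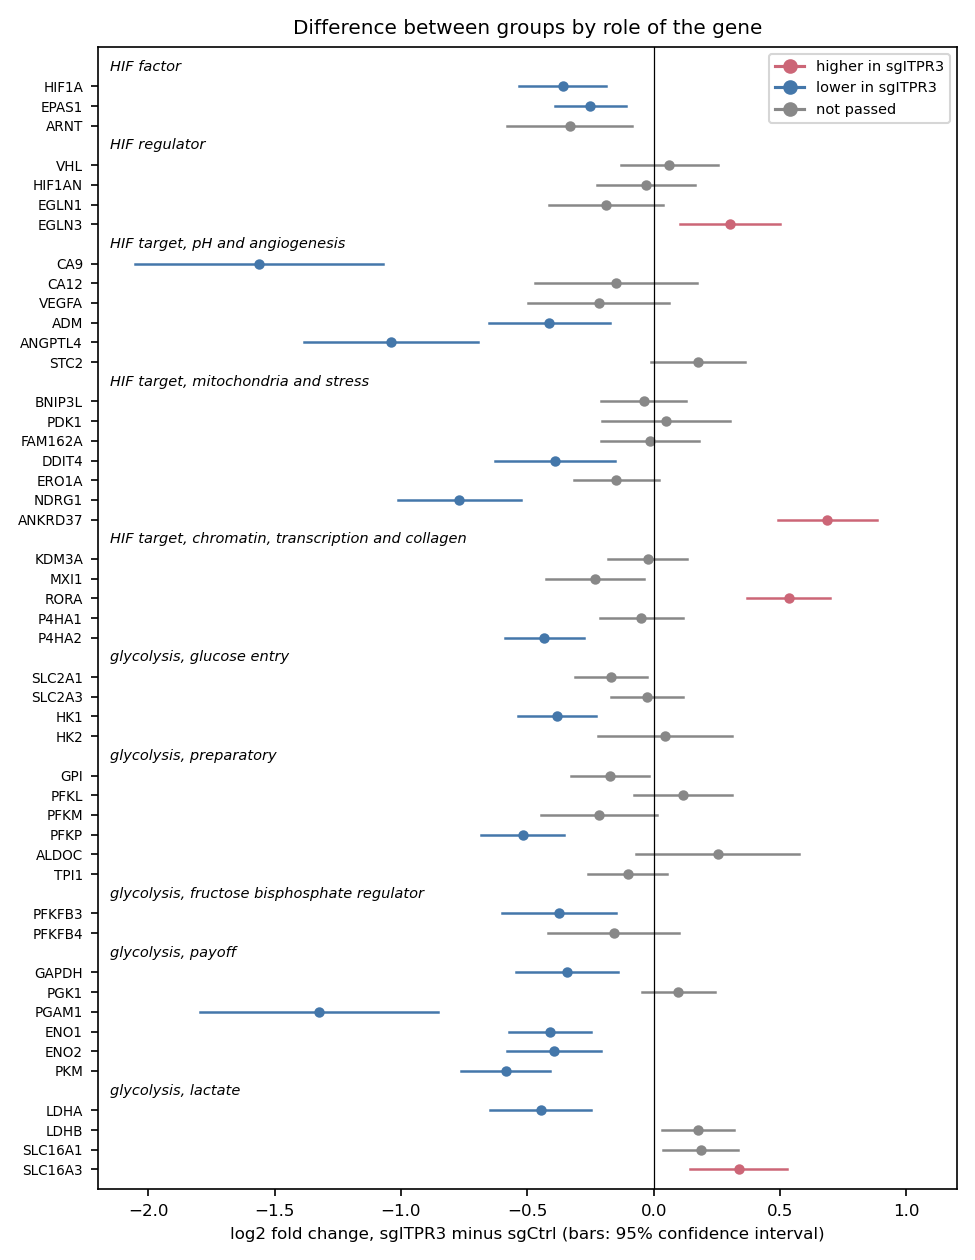
Difference between sgITPR3 and sgCtrl for the 47 tested members, grouped by role (horizontal axis: log2 fold change with its 95% confidence interval; colour: higher, lower or not passed in the edgeR test). CA9 (-1.56) and PGAM1 (-1.32) lie farthest to the left and ANKRD37 (0.69) farthest to the right.

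Totals were from 19140055 to 23943797 counts per library, and mitochondrially encoded genes held 19.6% to 21.3% of them. ITPR3 itself was at 107.5, 93.9 and 94.2 CPM in sgCtrl and at 39.4, 41.03 and 46.2 CPM in sgITPR3, so the labels and the targeted transcript pointed the same way. A 3′ tag may lie outside the edited part and says nothing about the protein. All 9 colorectal epithelium markers had counts, summing to 2407 to 2796 CPM in sgCtrl and 1987 to 2043 CPM in sgITPR3, although KRT20, CDX1 and CDH17 stayed below 0.39 CPM (KRT20 reached 0.389 CPM). Of the 6 tested, KRT8 (-0.39), KRT19 (-0.82) and EPCAM (-0.32) fell, CDX2 (0.34) rose and 2 did not pass. The 9 endothelium markers summed to 0.348 to 0.753 CPM and 0.202 to 0.722 CPM, with EMCN and CLEC4G at 0 everywhere. The 8 macrophage markers summed to 0.374 to 1.29 CPM and 1.08 to 1.21 CPM, with C1QA and C1QB at 0. The summed level of the 16 hepatocyte markers overlapped between groups, at 67.5 to 253 CPM and 153 to 305 CPM (APOC3 at 0). Of the 11 tested, SERPINA1 fell (log2 fold change -1.64), APOA1 (1.06) and CYP2E1 (1.19) rose and 8 did not pass, with a median of 1.08. Erythroid markers were higher in sgITPR3, at 4.84 to 6.39 CPM against 0.587 to 1.34 CPM. The 8 fibroblast and stellate markers summed to 19.2 to 20.4 and 21.3 to 24.1 CPM, with LUM at 0. Of the 3 tested, COL1A1 (0.48) rose, and ACTA2 (0.05) and RGS5 (-0.49) did not pass. Where such markers moved with a group, their part in the results below was not tested. ALB served as a covariate in an alternative setting. ALB itself was at 33.8, 169.7 and 21.6 CPM in sgCtrl and 231.6, 152.6 and 111.5 CPM in sgITPR3 (log2 fold change 1.14, not passed). Its level thus partly followed the group, and that setting cannot separate the 2. In such bulk samples fewer cells of a type and less RNA per cell cannot be told apart. The host livers were of mouse, while all these markers are human genes, and the fate of mouse reads was not stated. The sums of liver, vessel, blood and stromal markers therefore do not measure how many host cells were present.

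Transcripts of the HIF alpha subunits were slightly lower in sgITPR3. HIF1A (ENSG00000100644, chromosome 14, 61695513 to 61748259) was at 91.4, 81.5 and 95.1 CPM in sgCtrl and 67.02, 66.04 and 75.9 CPM in sgITPR3. No sgITPR3 value reached the lowest control, a fall by 0.36 on the log2 scale (SE 0.080, edgeR adjusted p = 0.00503). EPAS1, which encodes HIF-2 alpha, was at 225, 215 and 231 CPM against 196, 182 and 186 CPM, again without overlap (edgeR adjusted p = 0.0122 for a log2 fold change of -0.25 with an SE of 0.065). ARNT, the shared partner, was at 18.6, 21.0 and 23.2 CPM and 18.7, 15.2 and 15.98 CPM, overlapped between groups and did not pass (log2 fold change -0.33, edgeR adjusted p = 0.0505). In 4 of the 14 alternative settings ARNT was called lower (adjusted p over all settings 0.0275 to 0.452). These were limma-voom, omission of the filter, and the fits without sgCtrl replicate 1 or sgITPR3 replicate 1. With the level of the liver transcript ALB as a covariate, the HIF1A difference was -0.22 and the EPAS1 difference -0.21, and both calls ended. The EPAS1 call also ended without sgITPR3 replicate 2, at -0.23. Over 14 alternative settings the adjusted p ranged from 1.75e-04 to 0.229 for HIF1A and from 0.00174 to 0.791 for EPAS1.

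Among the oxygen sensors and their partners only EGLN3 passed the test. EGLN3 encodes a prolyl hydroxylase that is itself induced by HIF. It was at 41.7, 47.7 and 42.3 CPM in sgCtrl and 53.4, 48.2 and 60.98 CPM in sgITPR3. The groups were separated by less than 1 CPM, between 47.7 and 48.2 CPM (edgeR adjusted p = 0.0299 for a log2 fold change of 0.30 with an SE of 0.093). The call ended in 6 of the 14 alternative settings, namely the ALB covariate, the 1.2-fold test and the fits without sgCtrl replicates 1 or 3 or sgITPR3 replicates 1 or 3 (adjusted p over all settings 0.00851 to 0.530). EGLN1, the main oxygen sensor of most cells, was at 28.6, 24.3 and 32.9 CPM against 25.6, 24.6 and 25.1 CPM and did not pass (log2 fold change -0.19, 95% interval -0.41 to 0.039). Without sgCtrl replicate 2 it was called lower, at -0.30 (edgeR adjusted p = 0.0363; 0.0363 to 0.976 over the settings). VHL and HIF1AN overlapped between groups at 25.2 to 29.7 and 27.6 to 31.8 CPM, and the intervals of their log2 differences ran from -0.13 to 0.25 and from -0.22 to 0.16. EGLN2 had 2 to 5 counts per library and was not tested.

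Promoter windows of members that moved in different ways are shown next, because the HIF pair recognises a short DNA core. RefSeq windows of the 250 bases before the RefSeq start site (GRCh38.p14) were found for 44 members; BNIP3L, NDRG1, SLC16A1, SLC2A3, VEGFA and VHL had no entry. They were searched on both strands for ACGTG, the usual core of the hypoxia response element; its reverse complement is CACGT, so that CACGTG counts on each strand. Capitals mark the matches, and sequences run 5′ to 3′ on the strand of the gene.
CA9 (chr9:35673678-35673927, plus strand): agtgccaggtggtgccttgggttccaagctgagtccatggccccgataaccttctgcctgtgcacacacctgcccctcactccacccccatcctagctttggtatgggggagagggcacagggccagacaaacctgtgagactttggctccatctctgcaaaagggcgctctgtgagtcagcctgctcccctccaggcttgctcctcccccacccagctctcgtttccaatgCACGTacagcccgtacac
ANGPTL4 (chr19:8363905-8364154, plus strand): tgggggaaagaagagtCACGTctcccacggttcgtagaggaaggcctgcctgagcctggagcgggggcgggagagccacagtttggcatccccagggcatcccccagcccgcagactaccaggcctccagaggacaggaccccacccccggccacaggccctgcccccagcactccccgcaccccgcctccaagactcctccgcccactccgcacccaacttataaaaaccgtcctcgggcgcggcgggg
ANKRD37 (chr4:185396591-185396840, plus strand): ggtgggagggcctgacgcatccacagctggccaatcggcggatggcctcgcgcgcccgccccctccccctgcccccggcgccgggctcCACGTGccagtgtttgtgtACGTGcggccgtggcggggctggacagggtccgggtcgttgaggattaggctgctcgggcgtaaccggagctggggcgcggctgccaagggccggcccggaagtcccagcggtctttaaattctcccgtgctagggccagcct
LDHA (chr11:18394313-18394562, plus strand): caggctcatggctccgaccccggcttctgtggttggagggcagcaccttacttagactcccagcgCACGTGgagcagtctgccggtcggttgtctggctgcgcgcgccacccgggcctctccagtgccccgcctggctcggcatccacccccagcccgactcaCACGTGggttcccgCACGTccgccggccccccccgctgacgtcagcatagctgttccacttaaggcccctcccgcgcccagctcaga
PGK1 (chrX:78103998-78104247, plus strand): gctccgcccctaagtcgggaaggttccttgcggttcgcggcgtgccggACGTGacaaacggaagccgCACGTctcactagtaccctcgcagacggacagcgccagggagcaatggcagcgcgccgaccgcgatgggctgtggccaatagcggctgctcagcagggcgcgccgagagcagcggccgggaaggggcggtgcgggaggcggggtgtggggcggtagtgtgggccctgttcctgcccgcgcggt

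CA9 held 1 match, 18 bases before the start, and ANGPTL4 1 match, 234 bases before it. ANKRD37 held 3 matches and LDHA 5, counting CACGTG on each strand, and PGK1 held 2. In the results below CA9, ANGPTL4 and LDHA fell, ANKRD37 rose and PGK1 did not pass. An ACGTG was present in 18 of the 44 member windows (40.9%) and in 18.5% of all 35116 promoter windows of that length. Members counted with 1 window each, the first listed, while the share over all windows counted every entry. The median GC content was 68.4% for members and 58% for all windows. By call, 6 of 16 windows of members that fell held it, 8 of 21 of those that did not pass and 1 of 4 of those that rose. The related core GCGTG was in 17 member windows (38.6%) and in 32.2% of all windows. A match is a run of letters and not a measured binding site.

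The acid and vessel group of HIF targets held the largest difference of all members, that of CA9. CA9 (ENSG00000107159, chromosome 9, 35673856 to 35681159) encodes carbonic anhydrase 9, a cell surface enzyme that helps cells export acid and a widely used marker of hypoxia. It was at 40.6, 50.8 and 38.1 CPM in sgCtrl and at 22.8, 9.39 and 11.7 CPM in sgITPR3. All sgITPR3 libraries lay below the sgCtrl libraries, but replicate 1 stood apart from the other sgITPR3 libraries, between them and the controls. The log2 fold change of -1.56 had an SE of 0.229 and an edgeR adjusted p = 2.04e-04, and leaving out single libraries gave -2.04 to -1.32. ANGPTL4, encoding a secreted inhibitor of lipoprotein lipase, was at 15.9, 18.9 and 15.7 CPM and 7.30, 6.72 and 10.7 CPM without overlap. It was 2.06-fold lower in sgITPR3 (edgeR adjusted p = 3.27e-04 for a log2 fold change of -1.04 with an SE of 0.161).

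ADM, which encodes the vasodilator peptide adrenomedullin, was at 64.3, 75.8 and 58.1 CPM in sgCtrl. In sgITPR3 it was at 45.99, 44.7 and 58.6 CPM, so the groups overlapped through sgITPR3 replicate 3. It fell by 0.41 on the log2 scale (SE 0.111, edgeR adjusted p = 0.0150). Without sgITPR3 replicate 1 or 2 its call ended, at -0.36 and -0.34 (adjusted p over all settings 2.91e-05 to 0.195). VEGFA, the main angiogenic growth factor, was at 46.5, 73.6 and 50.3 CPM against 48.9, 49.4 and 48.4 CPM. Its sgCtrl spread came from replicate 2 alone, and the test did not pass (log2 fold change -0.22, 95% interval -0.50 to 0.060). Without that library the log2 fold change was 0.01, and with ALB as a covariate VEGFA was called lower at -0.51 (edgeR adjusted p = 0.00340; 0.00340 to 0.939 over the settings). ALB was highest among the controls in that same library, at 169.7 CPM against 33.8 and 21.6 CPM. CA12, a second surface carbonic anhydrase, and STC2, a secreted glycoprotein, did not pass at log2 fold changes of -0.15 and 0.18.

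Targets linked to mitochondria and stress went both ways. NDRG1 (ENSG00000104419, chromosome 8, 133237171 to 133302022), a stress-responsive gene often used as a hypoxia marker, was the most abundant HIF target outside glycolysis. It was at 970.4, 1124 and 1037 CPM in sgCtrl and at 569, 512 and 756 CPM in sgITPR3, where replicate 3 was the highest and still below every control. The log2 fold change of -0.77 had an SE of 0.114 and an edgeR adjusted p = 2.19e-04, and it was -0.95 when sgITPR3 replicate 3 was left out. DDIT4, which encodes the mTORC1 inhibitor REDD1, was at 49.9, 55.9 and 45.97 CPM and 33.3, 36.7 and 46.1 CPM. The groups overlapped narrowly through sgITPR3 replicate 3 (edgeR adjusted p = 0.0202 for a log2 fold change of -0.39 with an SE of 0.111). Its call ended without sgITPR3 replicate 1 or 2, at -0.29 and -0.35 (adjusted p over all settings 2.10e-04 to 0.250).

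ANKRD37, a small ankyrin repeat protein and HIF target, moved the other way. It was at 71.7, 61.8 and 54.5 CPM in sgCtrl and 96.3, 98.6 and 107.8 CPM in sgITPR3 without overlap (edgeR adjusted p = 8.93e-05 for a log2 fold change of 0.69 with an SE of 0.091). On the opposite strand UFSP2 covers 42.9% of the ANKRD37 transcript ends (the last 500 bases of each protein-coding transcript, pooled), and whether counting used strand was not stated, so their reads cannot be told apart. UFSP2 itself was at 40.1, 40.1 and 41.4 CPM against 34.9, 36.3 and 39.7 CPM, lower in sgITPR3 without passing the test. Opposite-strand genes covered more of the ends of GAPDH (75.5%) and DDIT4 (56.2%), with at most 2 and 4 counts in a library. Smaller overlaps of this kind were found for further members. The mitophagy receptor BNIP3L, the pyruvate dehydrogenase kinase PDK1, the mitochondrial protein FAM162A and the ER oxidase ERO1A overlapped between groups, with log2 fold changes from -0.15 (ERO1A) to 0.05 (PDK1). For BNIP3L the 95% interval was -0.21 to 0.13 and for PDK1 -0.20 to 0.30. BNIP3, a close relative of BNIP3L, had 0, 0 and 2 counts in sgCtrl and 0, 7 and 5 counts in sgITPR3 and was not tested. A library with no BNIP3 count allows at most 0.161 CPM (3 counts), counting error only.

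Of the targets that act in transcription, chromatin and collagen, RORA rose and P4HA2 fell. RORA, a nuclear receptor, was at 69.4, 67.7 and 62.1 CPM in sgCtrl and 92.6, 91.01 and 105 CPM in sgITPR3 (edgeR adjusted p = 1.78e-04 for a log2 fold change of 0.53 with an SE of 0.077). P4HA2, a catalytic subunit of collagen prolyl hydroxylase, was at 196.7, 175 and 179.98 CPM and 127, 139 and 143 CPM (edgeR adjusted p = 6.36e-04 for a log2 fold change of -0.43 with an SE of 0.073). Neither gene overlapped between groups. P4HA1, the paralog of P4HA2, overlapped at 111.9 to 127 CPM and 109 to 127 CPM (log2 fold change -0.05, 95% interval -0.21 to 0.12). KDM3A, a histone demethylase, and MXI1, an antagonist of MYC, did not pass at -0.02 and -0.23. MXI1 was called lower without sgITPR3 replicate 3, at -0.33, and in 2 further settings (adjusted p over all settings 0.0189 to 0.854).

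**Figure D2:**
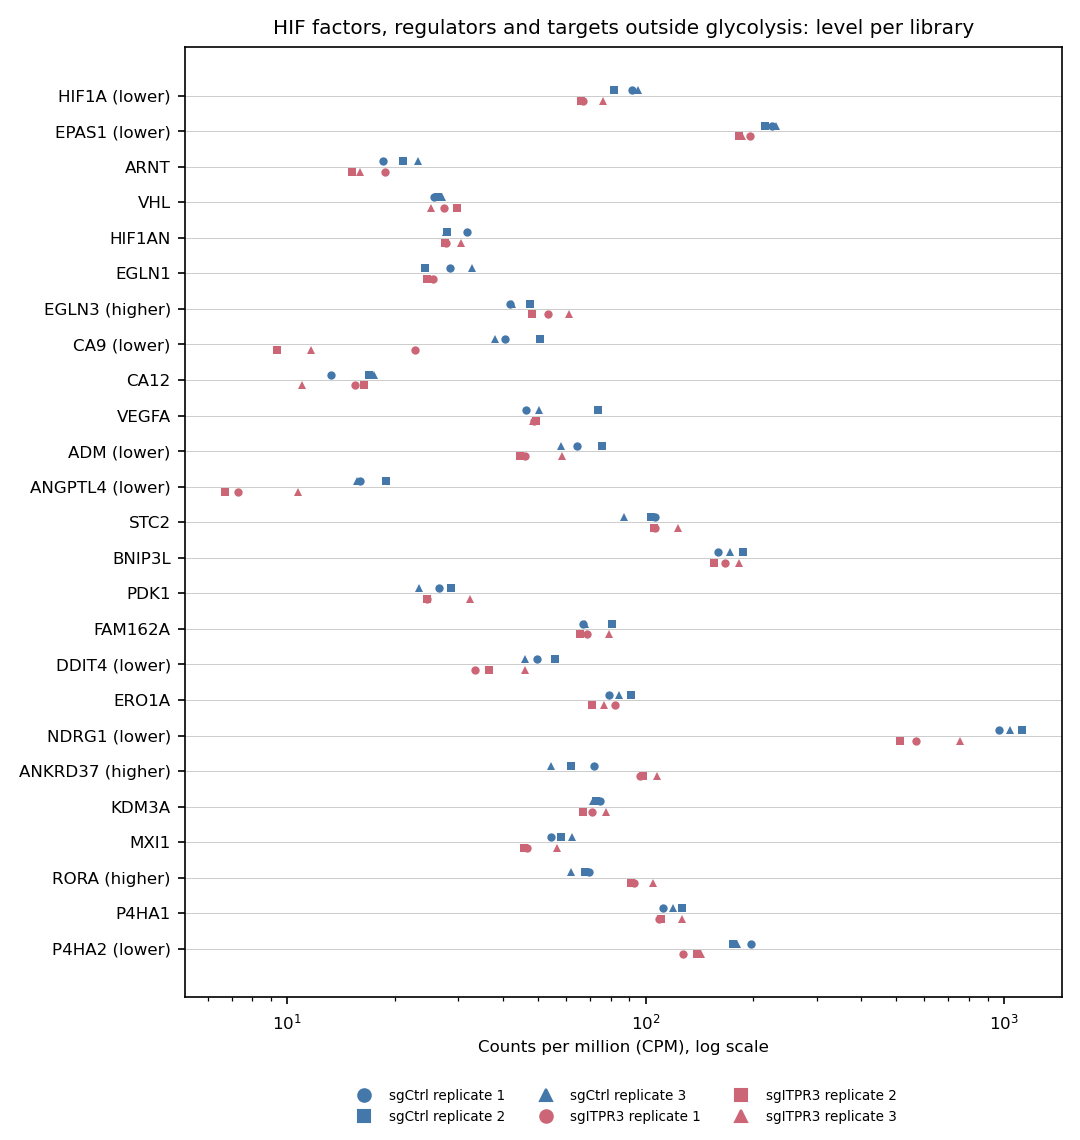
Level of each tested HIF factor, regulator and target outside glycolysis (CPM, log scale) in the 6 libraries, blue for sgCtrl and red for sgITPR3, with a symbol for each replicate; words in brackets give the edgeR call. CA9, ANGPTL4 and NDRG1 show red points below all blue points, ANKRD37 and RORA the reverse, and VEGFA has a single high sgCtrl point at 73.6 CPM.

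Glycolytic genes were considered by step, starting with glucose entry. SLC2A1 and SLC2A3 encode the glucose transporters GLUT1 and GLUT3. SLC2A1 was at 1101, 1080 and 1011 CPM in sgCtrl and 952, 900 and 984 CPM in sgITPR3. These values did not overlap but missed the threshold (log2 fold change -0.17, 95% interval -0.31 to -0.028, edgeR adjusted p = 0.0788); DESeq2 called SLC2A1 lower (adjusted p = 0.0349; 0.0349 to 1 over the settings). SLC2A3 overlapped, at 1060 to 1105 CPM and 993 to 1121 CPM. Of the hexokinases that trap glucose in the cell, HK1 was at 84.3, 86.8 and 90.01 CPM against 69.1, 61.9 and 69.3 CPM. It fell without overlap (edgeR adjusted p = 0.00143 for a log2 fold change of -0.38 with an SE of 0.072). The HK1 call ended in 1 of the 14 alternative settings (adjusted p over all settings 3.87e-05 to 0.121). HK2, the hexokinase induced by HIF, was at 24.6, 27.2 and 20.6 CPM against 23.8, 21.9 and 29.3 CPM and overlapped (log2 fold change 0.05, 95% interval -0.22 to 0.31).

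The preparatory steps, from glucose 6-phosphate to triose phosphates, held 1 fall among 6 tested genes (16.7%, while 11.9% of all genes fell). It was PFKP, the platelet form of phosphofructokinase, which commits sugar to glycolysis. PFKP was at 80.4, 84.3 and 85.4 CPM in sgCtrl and 57.9, 53.4 and 63.6 CPM in sgITPR3 (edgeR adjusted p = 2.25e-04 for a log2 fold change of -0.52 with an SE of 0.077). The liver form PFKL and the muscle form PFKM overlapped between groups at log2 fold changes of 0.12 and -0.22. PFKM was called lower without sgCtrl replicate 2, at -0.34 (edgeR adjusted p = 0.0156; 0.0156 to 0.912 over the settings). The isomerases GPI and TPI1 were at -0.17 and -0.10 and did not pass; without sgITPR3 replicate 3 GPI was called lower, at -0.24 (edgeR adjusted p = 0.0450; 0.0450 to 1 over the settings). ALDOC was at 6.99, 6.07 and 5.61 CPM against 7.82, 7.203 and 7.22 CPM, not overlapping and not passing (log2 fold change 0.25, 95% interval -0.069 to 0.58).

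ALDOA, the main aldolase of most cells, had only 3 to 8 counts per library and was not tested. In GENCODE 29 another gene on the same strand, ENSG00000285043, covers 90.1% of its pooled transcript ends, and that gene had 0 counts in every library. EGLN2 is covered likewise to 82.9%, by genes with 0 counts, and LDHB to 64.4%. GPI (3.82%) and PFKP (4.56%) were the remaining members with such an overlap. How the authors' counting treated reads that fall in 2 genes is not given, and the part of these overlaps in the low counts was not tested. For BNIP3 no such overlap was found.

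Of the fructose bisphosphate regulators, PFKFB3 makes the sugar that switches phosphofructokinase on. It was at 42.1, 40.2 and 33.6 CPM in sgCtrl and 28.2, 27.4 and 33.97 CPM in sgITPR3, with an overlap between the third libraries of each group. It fell by 0.37 on the log2 scale (SE 0.106, edgeR adjusted p = 0.0192). The call ended without sgCtrl replicate 1 or sgITPR3 replicates 1 or 2, at -0.34 to -0.31, with the ALB covariate and in the 1.2-fold test (adjusted p over all settings 0.00127 to 0.277). PFKFB4 did not pass (log2 fold change -0.16, 95% interval -0.42 to 0.0999).

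The payoff steps, which regain ATP, held most of the falls among glycolysis genes. Of the 6 tested genes 5 were lower (83.3%, while 11.9% of all genes fell). PKM and PGAM1 passed in all 14 alternative settings, ENO1 and ENO2 each missed the threshold in 1, and GAPDH missed it in 4. PKM (ENSG00000067225, chromosome 15, 72199029 to 72231822), the pyruvate kinase of tumour cells, was at 1281, 1107 and 1373 CPM in sgCtrl. In sgITPR3 it was at 819.8, 791 and 895 CPM, 1.5-fold lower (edgeR adjusted p = 1.48e-04 for a log2 fold change of -0.59 with an SE of 0.082). These 3′ tags do not separate the PKM1 and PKM2 splice forms. ENO1, the main enolase, was at 1634, 1678 and 1622 CPM against 1157, 1172 and 1386 CPM (edgeR adjusted p = 0.00136 for a log2 fold change of -0.41 with an SE of 0.076). ENO2, the neuronal enolase, was at 116, 117 and 105 CPM against 83.5, 76.7 and 97.2 CPM (edgeR adjusted p = 0.00433 for a log2 fold change of -0.40 with an SE of 0.086). In PKM, ENO1 and ENO2 alike no sgITPR3 library reached the lowest control, and the third library was the highest of its group.

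GAPDH, the most abundant member, was at 3446, 2802 and 3143 CPM in sgCtrl and 2651, 2122 and 2637 CPM in sgITPR3. It fell by 0.34 on the log2 scale (SE 0.094, edgeR adjusted p = 0.0168), although GAPDH is often taken as a reference gene. Its call ended without sgCtrl replicate 1 (-0.27), without sgITPR3 replicate 2 (-0.25), with the ALB covariate (-0.23) and in the 1.2-fold test (adjusted p over all settings 1.17e-05 to 0.352). PGAM1, the phosphoglycerate mutase, was at 13.9, 7.81 and 8.70 CPM against 4.92, 3.72 and 3.45 CPM (edgeR adjusted p = 5.90e-04 for a log2 fold change of -1.32 with an SE of 0.220). Its highest control was sgCtrl replicate 1, without which the log2 fold change was -1.03. ENO1, GAPDH and PGAM1 have processed pseudogenes elsewhere in the genome, and reads shared with those copies would make their counts uncertain. PGK1, the phosphoglycerate kinase and a classic HIF target, was the member of these steps that did not fall. It was at 438, 467 and 419 CPM against 459.8, 465 and 492 CPM and overlapped (log2 fold change 0.10, 95% interval -0.046 to 0.24).

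At the lactate end, the dehydrogenase subunits and the transporters differed in direction. LDHA, the subunit that favours lactate formation, was at 779, 626 and 578 CPM in sgCtrl and 464, 490.1 and 502 CPM in sgITPR3 (edgeR adjusted p = 0.00322 for a log2 fold change of -0.45 with an SE of 0.093). The LDHA call ended in 1 of the 14 alternative settings (adjusted p over all settings 2.02e-08 to 0.0798). LDHB, the heart subunit, was at 187, 184 and 198 CPM against 226, 206 and 210.5 CPM. Its libraries did not overlap, but the test did not pass (log2 fold change 0.18, 95% interval 0.032 to 0.32, edgeR adjusted p = 0.0733). SLC16A3, which encodes the lactate exporter MCT4, was at 125, 150.5 and 163 CPM against 178, 178 and 198 CPM. It rose by 0.34 on the log2 scale (SE 0.090, edgeR adjusted p = 0.0142), and the call ended without sgCtrl replicate 1 (0.23), without sgITPR3 replicate 3 (0.28) and in the 1.2-fold test (adjusted p over all settings 3.17e-04 to 0.360). CSNK1D lies on the opposite strand over 19.4% of the SLC16A3 transcript ends, at 79.3, 67.1 and 62.7 CPM against 79.6, 84.8 and 74.7 CPM. SLC16A1, encoding the lactate transporter MCT1, was at 427, 444 and 400.3 CPM against 489.9, 504 and 452 CPM. These values did not overlap and missed the threshold (log2 fold change 0.19, edgeR adjusted p = 0.0667); 5 of the 14 alternative settings called SLC16A1 higher, among them DESeq2, limma-voom and the fits without sgCtrl replicate 2 or sgITPR3 replicate 3 (adjusted p 0.0318 to 1).

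**Figure D3:**
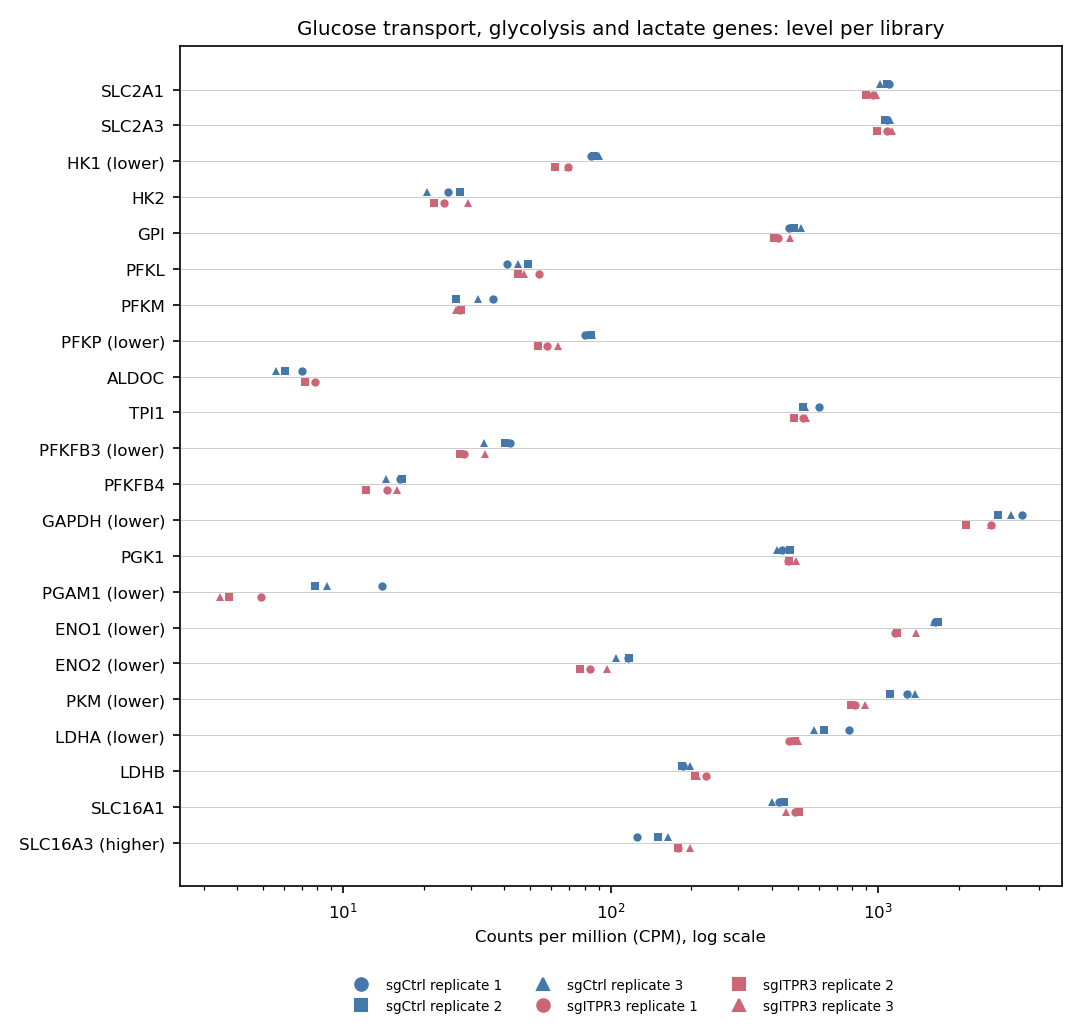
Level of each tested gene of glucose transport, glycolysis and lactate handling (CPM, log scale) in the 6 libraries, blue for sgCtrl and red for sgITPR3, with a symbol for each replicate. Red points lie below all blue points for HK1, PFKP, GAPDH, PGAM1, ENO1, ENO2, PKM and LDHA, and for SLC2A1, which did not pass, and above them for SLC16A3, and for SLC16A1, LDHB and ALDOC, which did not pass.

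Related genes were then compared within each library, since a ratio does not depend on library scaling. Of 13 listed pairs, 11 had at least 10 counts of both genes in every library, and 7 of these had ratios that did not overlap between groups. The levels of 39.3% of single genes did not overlap, but no such share was computed for ratios. All separated pairs except SLC2A3/SLC2A1 hold a member already called lower, so these ratios are not independent of those calls. With 3 libraries against 3 the exact two-sided permutation test cannot give a p under 0.1, which all 7 pairs had, adjusted to 0.157 over the 11 pairs. The LDHB to LDHA ratio was 0.2397, 0.294 and 0.343 in sgCtrl and 0.488, 0.420 and 0.420 in sgITPR3. The PFKL to PFKP ratio was 0.510, 0.582 and 0.525 against 0.930, 0.845 and 0.744, so the liver form came closer to the platelet form. HK2 to HK1 was 0.291, 0.313 and 0.228 against 0.344, 0.353 and 0.423. The P4HA2 to P4HA1 ratio moved down, from 1.76, 1.38 and 1.51 to 1.16, 1.26 and 1.13. CA12 to CA9 was 0.328, 0.334 and 0.460 against 0.679, 1.75 and 0.947. The ENO2 to ENO1 ratio was between 0.0647 and 0.0722 in all libraries and overlapped, so both enolases differed to a like extent (difference of log2 ratios 0.015). EPAS1 to HIF1A, PFKM to PFKP and SLC16A3 to SLC16A1 also overlapped.

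**Figure D4:**
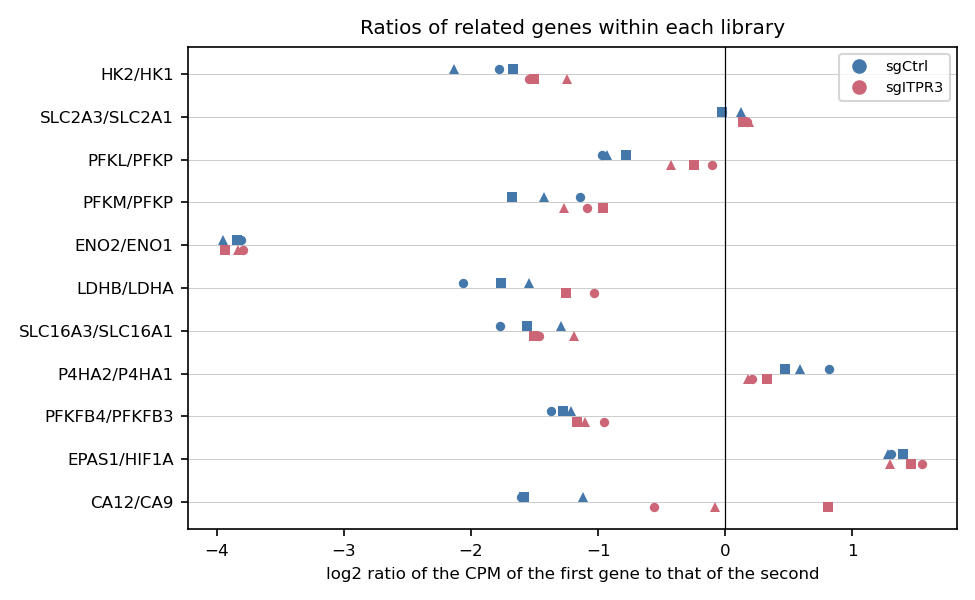
Log2 ratio of the CPM of 2 related genes within each library for 11 pairs (horizontal axis; blue sgCtrl, red sgITPR3, a symbol for each replicate). Red and blue points are apart for 7 pairs, among them LDHB/LDHA and PFKL/PFKP, and overlap for ENO2/ENO1.

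The spread between replicates followed the libraries for many members. In sgITPR3, replicate 3 was the highest of its group for 14 of 18 HIF targets outside glycolysis and 15 of 22 glycolysis genes, against 35.9% of all genes tested. In sgCtrl, replicate 2 was the highest for 11 of the 18 HIF targets and for 7 of the 22 glycolysis genes, against 33.9% of all genes. The median deviation from the group mean was 0.13 on the log2 scale for the HIF targets in sgITPR3 replicate 3 and 0.11 in sgCtrl replicate 2, while the median over all genes lay within 0.0041 of 0 in each library. CA9 did not follow this order, being highest in sgITPR3 replicate 1, with a coefficient of variation of 49.0% in sgITPR3 and 15.6% in sgCtrl. Median coefficients of variation were 10.03% and 9.51% (sgCtrl and sgITPR3) for HIF targets and 7.44% and 6.41% for glycolysis genes. Among the 8963 genes averaging 10 CPM or more they were 7.33% and 5.86%, and for the 45 members above that level 7.87% and 8.08%. The labels name no batch. Without sgITPR3 replicate 3, 19 members fell and 3 rose, and without sgCtrl replicate 2, 19 fell and 5 rose.

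**Figure D5:**
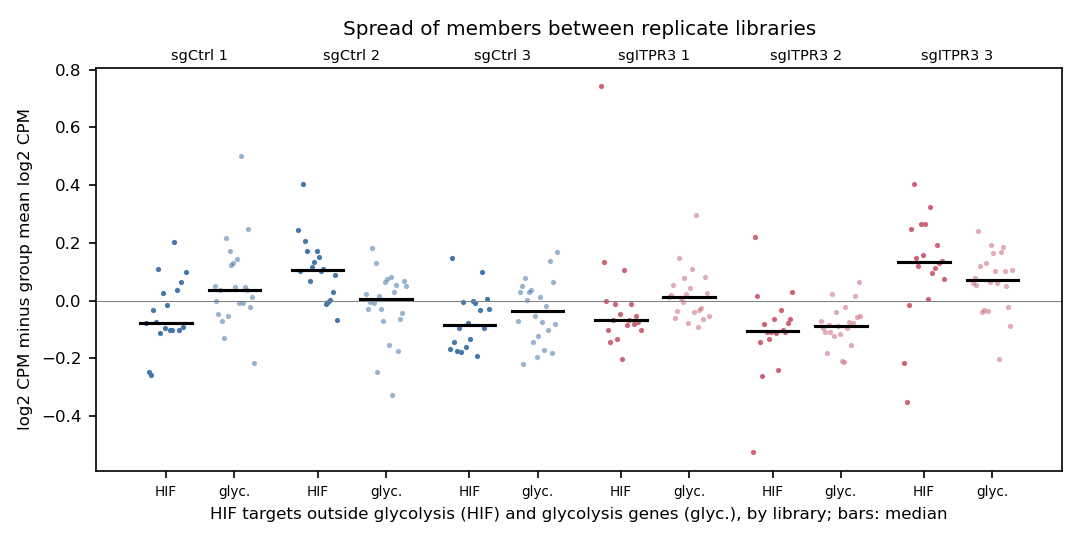
Deviation of each tested member from its group mean (log2 CPM) in each library, for HIF targets outside glycolysis (HIF) and glycolysis genes (glyc.), with the median as a bar. The bars stand highest for HIF targets in sgCtrl replicate 2 (0.11) and in sgITPR3 replicate 3 (0.13).

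Other genes of these pathways were read from lists chosen with earlier results of these data known. Of 14 further tested HIF pathway genes 2 fell and none rose (14.3%, below the 23.5% called over all genes), the VHL ligase partners RBX1 (log2 fold change -0.30) and ELOC (-0.28). Of 35 further tested HIF targets 8 fell, 5 rose and 22 did not pass (37.1% called), with a median of -0.04. IGFBP3, an insulin-like growth factor binding protein, was at 197, 180.2 and 185 CPM in sgCtrl and 77.5, 76.8 and 86.8 CPM in sgITPR3 (edgeR adjusted p = 3.75e-08 for a log2 fold change of -1.22 with an SE of 0.073). NDUFA4L2, a mitochondrial protein that lowers complex I activity under hypoxia, went the other way, at 4.09, 7.16 and 5.18 CPM against 19.6, 13.8 and 20.4 CPM (edgeR adjusted p = 2.09e-05 for a log2 fold change of 1.70 with an SE of 0.192). GPRC5A, an orphan receptor of the G protein-coupled class, fell by 0.81 on the log2 scale.

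Of 14 further tested glycolysis genes 4 fell and 3 rose (50% called, against 23.5% over all genes). Phosphoglucomutase PGM1 (-0.44) and the sugar transporters SLC2A6 (-0.50) and SLC2A8 (-0.51) fell, and the hexokinase-like gene HKDC1 rose from 9, 21 and 12 counts to 74, 61 and 42 counts. Among 13 genes of pyruvate entry to mitochondria, 11 did not pass (15.4% called). PDP1, the phosphatase that switches pyruvate dehydrogenase on, rose from 49.5, 42.01 and 43.6 CPM to 119, 121.6 and 116 CPM (edgeR adjusted p = 1.90e-08 for a log2 fold change of 1.40 with an SE of 0.076). Pyruvate carboxylase PC fell from 4.36, 3.43 and 3.90 CPM to 2.03, 2.104 and 2.27 CPM. The kinases that oppose PDP1 (PDK1, PDK2, PDK3 and PDK4) did not pass, at log2 fold changes of 0.05 to 0.31. Of 8 pentose phosphate genes PGD fell (-0.34) and TKTL1 rose (0.87, with libraries that overlapped between groups), so 25% were called, near the share over all genes. Of 8 tested genes of gluconeogenesis and glycogen 25% were called as well: the glycogen phosphorylase PYGB fell (-0.51) and FBP1 rose from 1 to 5 counts to 13 to 27 counts.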

How the data were processed

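The deposited values are raw counts, whole numbers for each gene in each of 6 libraries. According to the labels' list of tools, given per the submitters' processing notes, the authors used STAR 2.6.0a and featureCounts 1.6.3 with GRCh38. The gene annotation, strandedness, and the fate of mouse or multiply mapped reads were stated nowhere in those sources. Symbols were found for 58472 of 58884 identifiers, and gene positions are those of GENCODE 29 (GRCh38).

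Tests were run in edgeR 4.0.16 (R 4.3.3, limma 3.58.1). The function filterByExpr with a minimum count of 10 left 15804 genes, which held 99.8% to 99.9% of counts. TMM scaling and the quasi-likelihood F test, with group as the single term, compared sgITPR3 with sgCtrl, and Benjamini-Hochberg adjustment ran across the tested genes. The SE is the absolute log2 fold change over the square root of F. In these libraries 1 count equals 0.0405 to 0.0538 CPM, so the floor (3 counts) lies at 0.121 to 0.161 CPM. Only the edgeR fit was run on simulated counts, drawn from its own fitted dispersion, and the outcome is not reported here. The ratio, promoter, overlap and spread steps were not simulated.

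Members, lists and alternatives were chosen with earlier results of these data known. Values per library are given for members that passed, for CA9 and NDRG1, for the HIF factors and EGLN genes, and for further members picked after their values were seen. Of each other list, up to 4 passing genes with the smallest p are named; some items are not reported here. The alternatives were DESeq2 1.42.0, limma-voom, RLE scaling, omission of the filter, a cut at 1 CPM in 3 libraries, a replicate block, ALB as covariate, a 1.2-fold threshold test, and omission of each library.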

Additional observations from a re-analysis of the deposited data

How the results depend on the processing

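Direction and call were recomputed for the 47 tested members in 14 alternative settings. Of the 21 members that passed, 9 did so in every setting, 12 missed the threshold in at least 1 and 0 changed direction. Of the 26 that did not pass, 8 passed in at least 1 setting and 12 changed sign in at least 1, all 12 with the main difference not past the threshold. Leaving out each library in turn gave 12 to 19 members lower and 2 to 5 higher, with 7 to 10 glycolysis genes lower and 0 to 2 higher, and 4 to 7 HIF targets outside glycolysis lower and 2 higher. The replicate number as a block gave 19 members lower and 5 higher, with 10 glycolysis genes lower and 2 higher. The correlations of same-numbered libraries, on deviations from the group mean over all genes tested, were -0.050, 0.013 and 0.098. Such low values show no pairing by number, but they cannot exclude that libraries shared a mouse or a preparation. DESeq2 gave 2 glycolysis genes higher, as did limma-voom. In the test against a change of 1.2-fold 7 members were lower and 2 higher, with 3 glycolysis genes lower and 0 higher; this test asks for a larger difference by construction. Over all genes tested 1882 were lower and 1835 higher, against 982 and 1000 with the ALB covariate, 673 and 892 in the 1.2-fold test, and 1196 and 1135 without sgITPR3 replicate 2. Values that changed sign in these settings, as log2 differences, were near 0. With the ALB covariate they were HIF1AN 0.027, EGLN1 0.020, PDK1 -0.0077, SLC2A3 0.0090, HK2 -0.069 and PFKL -0.0070. Leaving out each library in turn gave VHL -0.0021 to 0.12, HIF1AN -0.080 to 0.032, CA12 -0.27 to 0.00044, VEGFA -0.35 to 0.011, BNIP3L -0.10 to 0.017, PDK1 -0.10 to 0.12, FAM162A -0.10 to 0.073, KDM3A -0.082 to 0.024, SLC2A3 -0.067 to 0.019, HK2 -0.083 to 0.14 and the log2 ratio ENO2/ENO1 -0.026 to 0.055. The cause was not tested. ALB as a covariate uses 1 more parameter with 6 libraries, and its level partly followed the group. With 3 libraries a group small differences cannot be told from none.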

Other observations

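Of the glycolysis genes, GAPDH, TPI1, ENO2 and SLC2A3 lie close together on chromosome 12, from 6533927 (the start of GAPDH) to 7936275 (the end of SLC2A3). They differed by -0.34, -0.10, -0.40 and -0.03 on the log2 scale, so 2 of the 4 neighbours fell and 2 did not pass (11.9% of all genes fell). These 4 are members only, and the stretch as a whole was not compared, so no result about the position follows. The position was looked at after the values were seen.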
